A study of Mus musculus with 8 samples.

Results

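*Ccl12* and 9 genes of the same chemoattractant system were followed in the hearts of mouse embryos: the ligands *Ccl2*, *Ccl7*, *Ccl8*, *Ccl11*, *Ccl12*, *Ccl6*, *Ccl9* and *Ccl24*, the receptor *Ccr2* and the atypical receptor *Ccrl2*. They were followed on every non-control probe whose accession belongs to one of these 10 genes, which gave 14 probes of the 41174 on the array, 2 probes for *Ccl7*, *Ccl24*, *Ccr2* and *Ccrl2* and 1 for each of the other 6 genes. The set was selected on measured values of these hearts: it was built around *Ccl12*, chosen by its lower log2 intensity in SIRT1 KO than in WT, and the values of the other 9 genes were known as well. The difference between genotypes is therefore given for the members as a description, with its standard error and 95% interval, and nothing is read from whether a member passed the threshold.

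The hearts came from embryos at E18.5, of strain C57BL/6 by the labels and C57BL/6J by the study's methods, from mice kept on chow, and 4 were wild type (WT) and 4 were labelled SIRT1 KO. The knockout is a whole-body deletion of the NAD-dependent protein deacetylase SIRT1, bred by crossing heterozygotes, and embryos of both sexes were used. Total RNA of 1 heart was hybridized to 1 Agilent one-color mouse array, and no treatment was given to either group. The arrays were run to look for molecular changes in fetal hearts that lack SIRT1.

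Between 59.5% and 64.9% of the probes were well above background on an array, no spot was saturated, and the precision is limited by having 4 arrays for each genotype. The 4 WT arrays lie on 1 slide and the 4 SIRT1 KO arrays on another, scanned on another day, so genotype cannot be told apart from slide or scan day in any difference given here. The label was checked on the targeted gene, which has 2 probes. The log2 level of the brighter one (A_52_P358612) was -0.14, 0.32, 0.00 and 0.00 in WT replicates 1 to 4 and 0.64, 0.50, 0.43 and 0.75 in the hearts labelled SIRT1 KO. It was higher in the hearts labelled SIRT1 KO by 0.54 (SE 0.115, adjusted p = 0.0323, limma), a call that was kept in 6 of 17 alternative settings. With 1 array left out it held without WT replicate 2 or SIRT1 KO replicate 3, and without any other array the adjusted p was between 0.0658 and 0.0922. The other *Sirt1* probe (A_51_P141152) differed by -0.11 (SE 0.110, adjusted p = 0.589, limma). Neither probe showed the loss that the label names, and whether they lie in the deleted stretch is not given in the sources used here. All 8 cardiomyocyte markers were well above background on every array, and none passed the threshold (limma; 3 had an unadjusted p under 0.05).

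CC chemokines are small secreted proteins that draw leukocytes towards the cells that make them, through receptors coupled to G proteins on the leukocyte surface. *Ccl2*, *Ccl7*, *Ccl8* and *Ccl12* are the mouse monocyte chemoattractant proteins. *Ccl2*, *Ccl7* and *Ccl12* act through *Ccr2*, the receptor that lets classical monocytes leave the bone marrow, and *Ccl11* and *Ccl24* are eotaxins, which draw eosinophils through *Ccr3*. *Ccl6* and *Ccl9* are made largely by myeloid cells and act through *Ccr1*. *Ccrl2* binds chemerin and holds it at the cell surface without signalling. Several cell types of the heart can make these ligands.

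Several of the ligands sit side by side. In the RefSeq order of coding genes on chromosome 11, *Ccl2*, *Ccl7*, *Ccl11*, *Ccl12* and *Ccl8* follow each other without another coding gene between them, and *Ccl1* comes next. *Ccl9* and *Ccl6* are neighbours elsewhere on chromosome 11, between *Ccl5* and *Ccl3*. *Ccl24* lies on chromosome 5 beside *Ccl26*, *Ccr2* on chromosome 9 beside *Ccr3*, and *Ccrl2* on chromosome 9 beside *Ltf*. *Ccl12* had separate genotypes, its neighbour *Ccl8* was at the edge of detection, and *Ccl9* had a fitted difference of opposite sign to *Ccl12*. The 250 bases before the transcription start are shown for these genes and for the outermost of the 3 *Ccrl2* starts. They are RefSeq sequence of GRCm38.p6, 5' to 3' on the strand of the gene, and 6 of the 10 genes were matched in this table. Capitals mark TATAAA, the AP-1 site TGANTCA and the NF-κB consensus, each searched on both strands.
Ccl12, chr11:82101595-82101844, plus strand: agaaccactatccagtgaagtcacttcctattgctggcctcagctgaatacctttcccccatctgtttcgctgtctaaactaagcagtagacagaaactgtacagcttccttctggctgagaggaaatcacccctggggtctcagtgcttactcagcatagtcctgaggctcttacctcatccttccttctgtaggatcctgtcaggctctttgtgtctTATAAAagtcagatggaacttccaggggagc
Ccl8, chr11:82114935-82115184, plus strand: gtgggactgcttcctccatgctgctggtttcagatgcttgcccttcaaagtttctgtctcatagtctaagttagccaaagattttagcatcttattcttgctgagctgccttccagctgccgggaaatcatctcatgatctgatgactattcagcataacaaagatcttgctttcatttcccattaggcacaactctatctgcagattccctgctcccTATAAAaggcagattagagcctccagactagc
Ccl9, chr11:83578637-83578886, minus strand: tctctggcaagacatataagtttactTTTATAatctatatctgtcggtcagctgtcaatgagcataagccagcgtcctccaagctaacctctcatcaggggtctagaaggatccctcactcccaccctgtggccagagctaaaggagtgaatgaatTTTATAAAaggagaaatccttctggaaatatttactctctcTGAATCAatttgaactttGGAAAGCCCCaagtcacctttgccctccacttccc
Ccrl2, chr9:111057519-111057768, minus strand: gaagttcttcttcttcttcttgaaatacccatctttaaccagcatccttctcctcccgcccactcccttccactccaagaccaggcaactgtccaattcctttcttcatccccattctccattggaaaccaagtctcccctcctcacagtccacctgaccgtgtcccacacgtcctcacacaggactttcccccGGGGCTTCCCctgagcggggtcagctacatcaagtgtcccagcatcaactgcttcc

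TATAAA stood 31 to 26 bases before the start of *Ccl12* and 32 to 27 bases before that of *Ccl8*. Of 32851 promoter windows of the same length, 12.4% hold it at any position and on either strand. The share with it at the position seen here was not counted. The *Ccl9* window held it at 92 to 87 bases, with a copy on the other strand that overlaps it and another further upstream, beside a match to TGANTCA, 53 to 47 bases before the start, and a match to the NF-κB consensus at 35 to 26 bases. The NF-κB consensus was also found at 56 to 47 bases before the outermost *Ccrl2* start. TGANTCA is held at any position by 6.75% of all windows and the NF-κB consensus by 7.25%. The windows of *Ccl6* and *Ccr2* and the other 2 *Ccrl2* windows held none of the 3 motifs. Aligned end to end, the *Ccl12* and *Ccl8* windows shared 161 identical bases (64.4% of 250), and the other 5 pairs among *Ccl12*, *Ccl8*, *Ccl9* and *Ccl6* shared 57.6% to 62.0%. Gaps were allowed, and these alignments ran over 280 to 305 columns. Windows of unrelated genes were not aligned, so the identity that they would reach is not known. All of these are matches of letters and say nothing of what binds there.

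**Figure D1:**
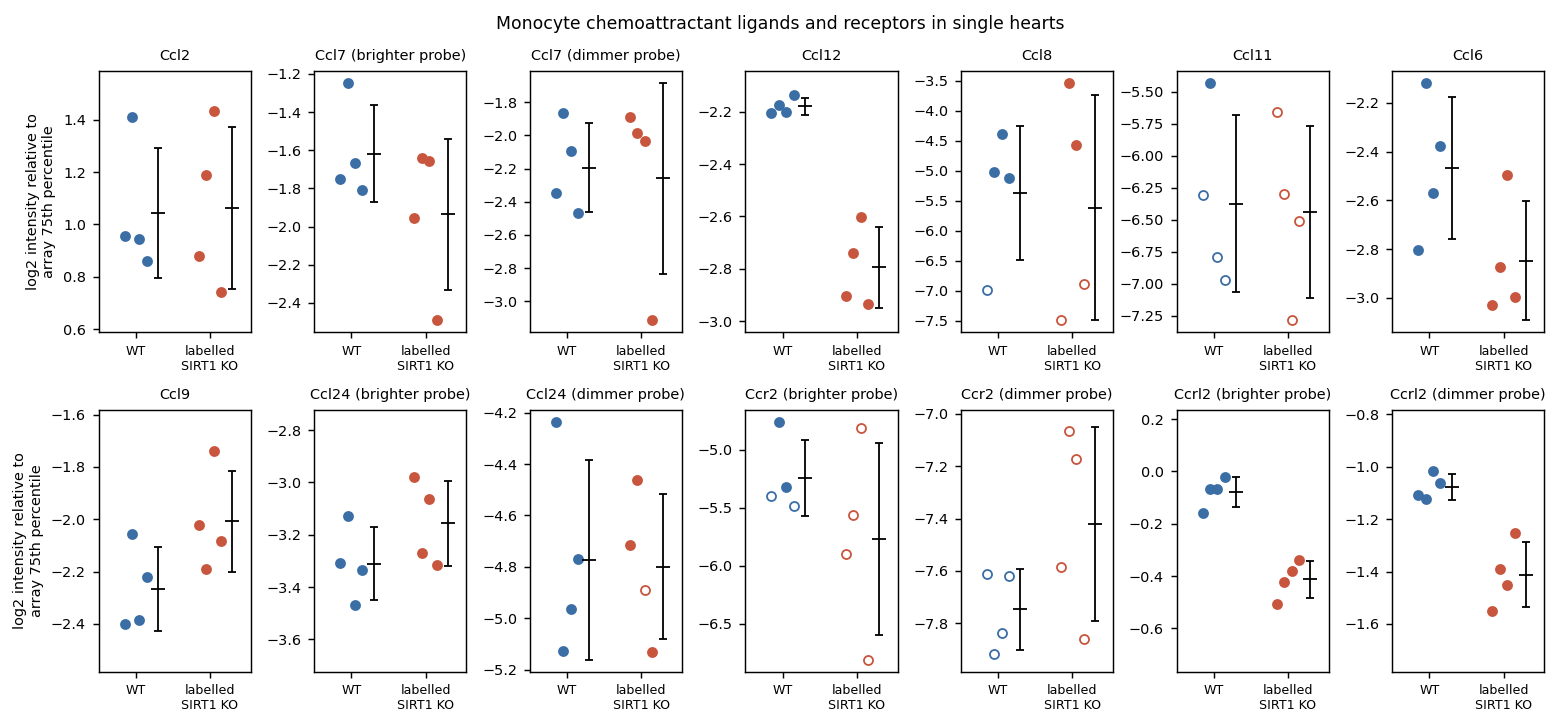
Level of each of the 14 probes in single hearts, as log2 intensity relative to the 75th percentile of the array (vertical axis; its range differs between panels), in the 4 WT and the 4 labelled SIRT1 KO hearts. Filled points were well above background and open points were not; the bar is the mean ± SD of 4 hearts. The genotypes are apart for Ccl12 and for both Ccrl2 probes and overlap for the other 11 probes. Of all probes with a value on every array, 13.7% have the genotypes apart (5.09% with the hearts labelled SIRT1 KO lower).

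Levels are given as log2 intensity after the 75th percentile of the array was subtracted, so that a value below 0 is dimmer than that percentile, and they are compared between hearts on the same probe only. Of the 14 probes, 9 were well above background on all 8 arrays, and 11 were well above background on at least 4 arrays and entered the fit. Over these 11 probes of 8 genes the fitted log2 fold change was below 0 for 8 and above 0 for 3, with a median of -0.24, beside a median of 0.01 over all 25615 probes tested. This lean was not stable: with normexp on the median signal 6 were above 0 and 5 below (median 0.00), without SIRT1 KO replicate 4 it was 6 and 5 (median 0.08), and without WT replicate 3 the median was -0.09. Past the threshold (limma, adjusted p under 0.05) were 2 of the 11, where 4.88% of all probes tested were (0.91% with a lower signal in the hearts labelled SIRT1 KO). They were the *Ccl12* probe and the brighter *Ccrl2* probe, both lower. Since the genes were chosen with this contrast known, nothing is read from that count. Over all probes 1017 were higher and 233 lower; these numbers were 672 and 379 after quantile normalization, 676 and 1228 with each array centred on its median, and 639 and 5713 without scaling, which moved the median of all probes to -0.02, -0.12 and -0.21.

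*Ccl12*, a ligand of *Ccr2*, was lower in every heart labelled SIRT1 KO than in any WT heart. Its log2 level (probe A_52_P249514) was -2.21, -2.17, -2.20 and -2.14 in WT replicates 1 to 4. In the hearts labelled SIRT1 KO it was -2.90, -2.74, -2.60 and -2.94. The WT hearts lay within a narrow band (SD 0.0320, n = 4), and the hearts labelled SIRT1 KO were spread more widely (SD 0.155, n = 4). The genotypes did not overlap, as for 13.7% of the 25535 probes with a value on every array (5.09% with the hearts labelled SIRT1 KO lower). The log2 fold change was -0.62 (SE 0.0877, 95% interval -0.81 to -0.42), so that the signal was 1.53-fold higher in WT. With 1 array left out it lay between -0.68 and -0.57, and after another background correction (normexp on the median signal) it was -0.37.

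*Ccl2*, the ligand after which the pathway is named, did not separate the genotypes. Its log2 level (probe A_51_P286737) was 0.96, 1.41, 0.95 and 0.86 in WT replicates 1 to 4. In the hearts labelled SIRT1 KO it was 0.88, 1.19, 1.43 and 0.74. WT replicate 2 and SIRT1 KO replicate 3 were the highest of their groups and almost equal, and the lowest heart of each group lay close to the other's. The log2 fold change was 0.02 (SE 0.173, 95% interval -0.37 to 0.41), an interval that holds neither the -0.62 fitted for *Ccl12* nor a rise of that size. The sign turned with the setting: it was -0.20 without scaling, -0.11 with median centring, -0.11 without SIRT1 KO replicate 3 and 0.14 without WT replicate 2, and 7 of 17 alternatives were below 0.

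The *Ccl2* probe was printed 10 times on every array, and 1 spot on WT replicate 1 was left out as an outlier. The spread between these spots covers the noise of spots within an array, and not that of labelling, hybridization or scaling. The SD between spots of 1 array lay between 0.0798 and 0.116 on the log2 scale. The SD between hearts was 0.248 in WT and 0.310 in the hearts labelled SIRT1 KO. In WT replicate 2 the lowest spot (1.28) was above every spot of WT replicates 1, 3 and 4, whose highest were 1.06, 1.22 and 0.99. In SIRT1 KO replicate 3 the lowest spot (1.28) was above all spots of SIRT1 KO replicates 1 and 4, whose highest were 1.03 and 0.87, but not above those of SIRT1 KO replicate 2, whose highest was 1.39.

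**Figure D2:**
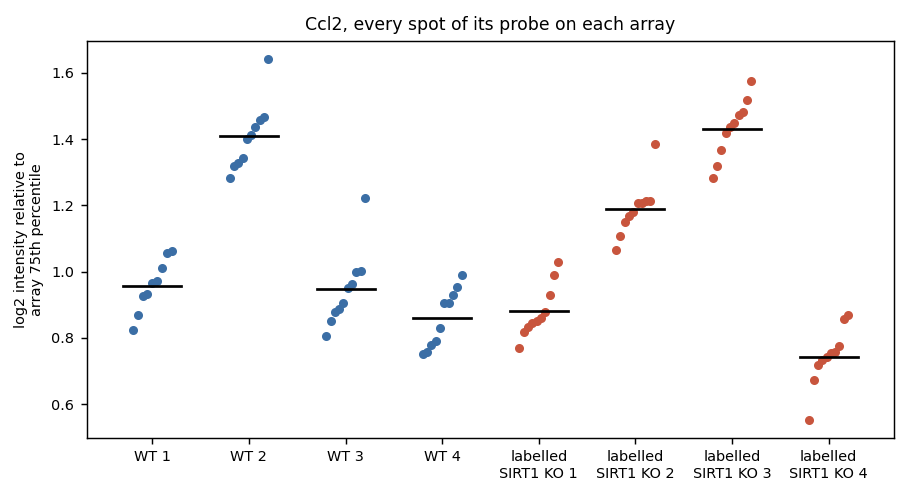
Every spot of the Ccl2 probe on each array, as log2 intensity relative to the 75th percentile of the array (vertical axis), by heart (horizontal axis); the line is the mean of the spots of that array. The means of WT replicate 2 and SIRT1 KO replicate 3 are the highest of their genotypes, at 1.41 and 1.43; the spots of the latter overlap those of SIRT1 KO replicate 2.

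*Ccl7*, a further ligand of *Ccr2*, was measured by a pair of probes that differed in the size of the fitted difference. The log2 level of the brighter probe (A_51_P436652) was -1.75, -1.24, -1.67 and -1.81 in the WT hearts and -1.95, -1.64, -1.66 and -2.49 in the hearts labelled SIRT1 KO. That of the dimmer probe (A_52_P208763) was -2.35, -1.87, -2.09 and -2.47 in the WT hearts and -1.89, -1.99, -2.04 and -3.12 in the hearts labelled SIRT1 KO. On both probes WT replicate 2 was the highest WT heart and SIRT1 KO replicate 4 the lowest of all 8, and the genotypes overlapped. The probes placed SIRT1 KO replicate 1 differently, below every WT heart on the brighter one and above 3 WT hearts on the dimmer one. The log2 fold change was -0.32 (SE 0.202, 95% interval -0.77 to 0.14) on the brighter probe and -0.06 (SE 0.266, -0.67 to 0.54) on the dimmer one. Without SIRT1 KO replicate 4 these were -0.13 and 0.22, and without WT replicate 2 they were -0.19 and 0.05. Without scaling they were -0.54 and -0.28, and with normexp -0.16 and 0.01. Across the 8 hearts, with each genotype's mean removed, the probes had a Pearson r of 0.89.

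*Ccl8* and *Ccl11* were at the edge of detection. *Ccl8* (A_51_P464703) was well above background on 3 WT arrays and 2 arrays of hearts labelled SIRT1 KO, with log2 levels of -6.98, -5.02, -4.39 and -5.12 in WT and -7.49, -3.53, -4.57 and -6.89 in the hearts labelled SIRT1 KO. The lowest hearts of both genotypes were those not above background. The log2 fold change of -0.24 (SE 0.894, 95% interval -2.27 to 1.78) was -0.94 with SIRT1 KO replicate 2 left out and 0.38 with SIRT1 KO replicate 1 left out, so no direction was measured. The eotaxin *Ccl11* (A_51_P331752) was well above background on 1 WT array and on none of the hearts labelled SIRT1 KO, and no fold can be given.

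The myeloid ligands *Ccl6* and *Ccl9*, next to each other on the chromosome, had fitted differences of opposite sign. The log2 level of *Ccl6* (A_51_P460954) was -2.80, -2.12, -2.57 and -2.38 in WT and -3.03, -2.87, -2.49 and -3.00 in the hearts labelled SIRT1 KO. SIRT1 KO replicate 3 lay among the WT hearts, and the other 3 hearts labelled SIRT1 KO lay below all of them. The log2 fold change was -0.38 (SE 0.166, 95% interval -0.76 to -0.01), which went to -0.20 with normexp and -0.60 without scaling. For *Ccl9* (A_51_P185660) the levels were -2.40, -2.06, -2.39 and -2.22 in WT and -2.02, -2.19, -1.74 and -2.08 in the hearts labelled SIRT1 KO. Here the groups overlapped at WT replicate 2, and the log2 fold change was 0.26 (SE 0.119, 95% interval -0.01 to 0.53), or 0.17 without SIRT1 KO replicate 3, 0.12 with median centring and 0.04 without scaling between arrays.

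*Ccl24*, the eotaxin that was detected, had 2 probes that did not rank the hearts alike (r = -0.04 with the genotype means removed). The brighter probe (A_52_P18116) gave log2 levels of -3.31, -3.13, -3.47 and -3.33 in WT and -2.98, -3.27, -3.06 and -3.32 in the hearts labelled SIRT1 KO. Its log2 fold change was 0.15 (SE 0.106, 95% interval -0.09 to 0.39), and it was 0.09 without SIRT1 KO replicate 1, 0.10 without WT replicate 3, 0.04 after quantile normalization, 0.02 with median centring, 0.25 with normexp and -0.07 without scaling, where the sign turned. The dimmer probe (A_51_P322640), well above background on 4 WT arrays and 3 others, gave -0.03 (SE 0.205, -0.49 to 0.44). Its sign turned in 4 of 16 alternatives, and the values ran from -0.25 without scaling to 0.19 with normexp, with 0.15 without WT replicate 1 and -0.14 without WT replicate 2. The genotypes overlapped on both.

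**Figure D3:**
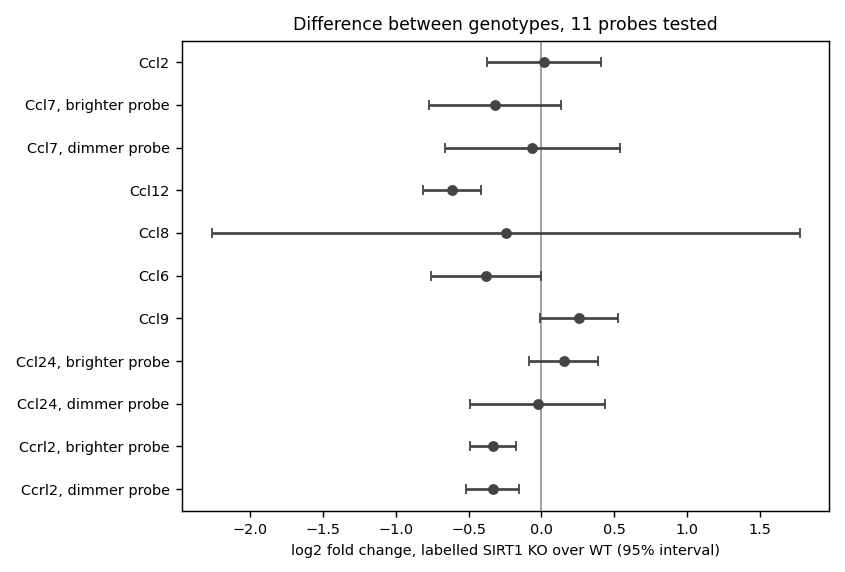
Fitted log2 fold change of the hearts labelled SIRT1 KO over WT (horizontal axis, point) with its 95% interval (bar) for the 11 probes that entered the fit (vertical axis). The intervals of Ccl12, both Ccrl2 probes and, narrowly, Ccl6 lie below 0 in this setting, and the others cross it.

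*Ccr2*, the receptor shared by *Ccl2*, *Ccl7* and *Ccl12*, was barely seen in these hearts. Its brighter probe (A_51_P245989) was well above background on 2 WT arrays and on none of the hearts labelled SIRT1 KO. The log2 levels were -5.40, -4.76, -5.32 and -5.48 in WT and -5.90, -5.56, -4.82 and -6.81 in the hearts labelled SIRT1 KO. The levels overlapped, and no fold is given. No array had the other probe (A_52_P580853) well above background. Of the receptors of the other ligands, *Ccr1* was well above background on 0 arrays and *Ccr3* on 1.

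*Ccrl2*, which binds chemerin, was lower in the hearts labelled SIRT1 KO on both of its probes. The brighter probe (A_51_P232682) gave log2 levels of -0.16, -0.07, -0.07 and -0.02 in WT and -0.51, -0.42, -0.38 and -0.34 in the hearts labelled SIRT1 KO. The dimmer probe (A_52_P334593) gave -1.11, -1.12, -1.02 and -1.06 in WT and -1.55, -1.39, -1.45 and -1.25 in the hearts labelled SIRT1 KO. The genotypes did not overlap on either, as for 13.7% of all probes with a value on every array (5.09% with the hearts labelled SIRT1 KO lower). The log2 fold changes were -0.33 (SE 0.0702, 95% interval -0.49 to -0.17) and -0.33 (SE 0.0806, -0.52 to -0.15), so the probes gave the same size. Over the 17 alternatives both ran from -0.55, without scaling, to -0.29.

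Within a genotype, the deviations of the ligands from heart to heart were mostly correlated above 0, although no pair passed the adjusted threshold. This was measured as the correlation of each gene's deviations from its genotype mean over the 8 hearts, which leaves out the difference between genotypes, for the 7 genes with a probe well above background on all arrays. Of the 21 pairs, 19 had r above 0, with a median of 0.52, and 4 had an unadjusted p under 0.05 (exact permutation of hearts within genotype, two-sided). Benjamini-Hochberg adjustment was over the 21 pairs, which share genes and hearts and are not independent. No share over pairs of other genes was taken, so nothing is read from the count of 19. All genes share the scaling of an array, so an error in it moves all of them together.

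The strongest pair was *Ccl2* with *Ccl7*, both *Ccr2* ligands and neighbours on chromosome 11. Pearson's r was 0.91 (exact permutation p = 0.00694, adjusted p = 0.122, n = 8) and Spearman's rho 0.83 (exact permutation p = 0.0208, adjusted p = 0.219). It was 0.92 without the 2 hearts farthest from the median of *Ccl2* (WT replicate 2 and SIRT1 KO replicate 3), and between 0.87 and 0.94 with any 1 heart left out. *Ccl12* lies close to them on the chromosome, and its r with *Ccl2* was 0.75 (exact permutation p = 0.0694, adjusted p = 0.292) and with *Ccl7* 0.67. The WT hearts hardly varied in *Ccl12*, from -0.03 to 0.04 around their mean, so these values rest largely on the hearts labelled SIRT1 KO.

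The other 3 pairs with an unadjusted p under 0.05 involved *Ccl6*. Its r was 0.86 with its neighbour *Ccl9* (exact permutation p = 0.0174), 0.79 with *Ccl2* (exact permutation p = 0.0330) and 0.69 with *Ccl12* (exact permutation p = 0.0174). Spearman's rho was 0.67 (exact permutation p = 0.118), 0.55 (exact permutation p = 0.222) and 0.81 (exact permutation p = 0.0174). Without the 2 hearts farthest from the median r fell to 0.39, 0.11 and 0.45. Those hearts were WT replicate 2 and SIRT1 KO replicate 3 for *Ccl9* and *Ccl2*, and SIRT1 KO replicates 3 and 4 for *Ccl12*. All 3 values thus rested in part on the hearts left out. The rank value with *Ccl12* was close to that of *Ccl2* with *Ccl7* (exact permutation, adjusted p = 0.219, Benjamini-Hochberg over the 21 pairs). It includes the ranks of WT hearts whose *Ccl12* deviations ran only from -0.03 to 0.04. *Ccrl2* followed none of the ligands closely, with r between -0.43 and 0.50.

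**Figure D4:**
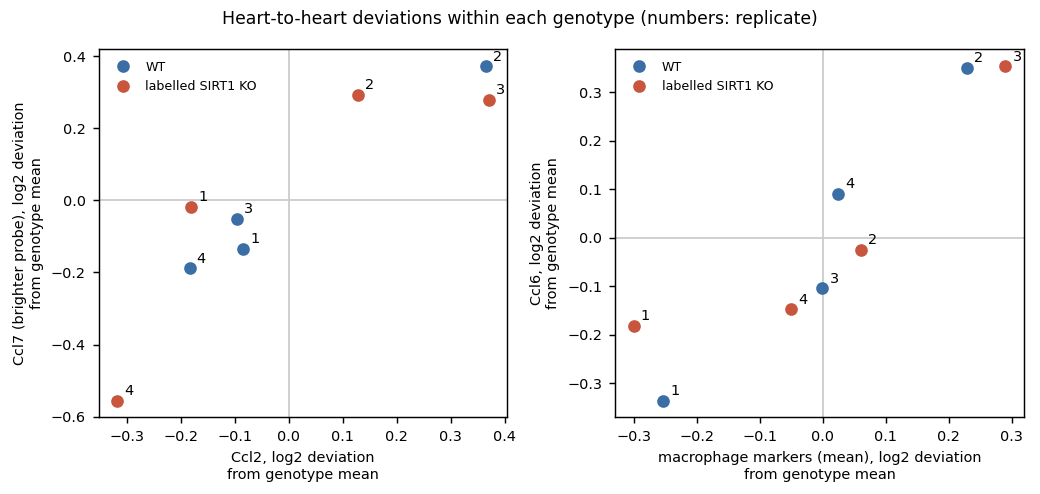
Deviation of each heart from the mean of its genotype on the log2 scale, for Ccl7 (vertical axis) against Ccl2 (horizontal axis) on the left and for Ccl6 (vertical axis) against the mean of 20 macrophage markers (horizontal axis) on the right; numbers give the replicate. WT replicate 2 and SIRT1 KO replicate 3 are at the upper right in both plots.

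Macrophages were present by their markers. Of 23 monocyte and macrophage markers 20 were tested, and none passed the threshold (limma; 4 had an unadjusted p under 0.05), with 9 fitted differences above 0 and 11 below and a median of -0.04. Their mean log2 level lay between -1.66 and -1.18 in WT and between -1.73 and -1.14 in the hearts labelled SIRT1 KO. *Spi1* and *Timd4* were well above background on 0 arrays and *Itgam* on 2. In bulk RNA, fewer cells of a type and less RNA per cell cannot be told apart.

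Of the members, *Ccl6* had the highest correlation with these markers from heart to heart, short of the adjusted threshold. With the genotype means removed its r with their mean level was 0.92 (exact permutation p = 0.00347, adjusted p = 0.0972 over 28 pairs of a member with a marker list) and Spearman's rho 0.95 (exact permutation p = 0.00347, adjusted p = 0.0972). It was 0.79 without WT replicate 2 and SIRT1 KO replicate 3. For *Ccl12* the r with the same markers was 0.72 (exact permutation p = 0.0642, adjusted p = 0.486), for *Ccl2* 0.76 and for *Ccl24* 0.08. The lists for fibroblasts, epicardium and endothelium gave no pair with an unadjusted p under 0.05, and 24 of all 28 pairs had r above 0.

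Of the other marker lists, the epicardial one had mean levels that separated the genotypes. Taken singly, most of its markers overlapped between genotypes. Of all single probes with a value on every array, 13.7% did not overlap (5.09% with the hearts labelled SIRT1 KO lower). All 5 epicardial markers had a fitted difference below 0, and their mean level lay between 1.25 and 1.53 in WT and between 0.71 and 1.15 in the hearts labelled SIRT1 KO. All 6 endothelial markers were below 0 as well, with mean levels of 1.56 to 1.94 in WT and 1.46 to 1.60 in the hearts labelled SIRT1 KO, which overlap. No gene of either list passed the threshold (limma; 3 epicardial and 1 endothelial had an unadjusted p under 0.05), and their part in the members' differences was not tested. Liver markers, which a heart should lack, had mean levels of 3.50 in SIRT1 KO replicate 1 and 2.63 in SIRT1 KO replicate 4 and between -0.13 and 1.44 in the other 6 hearts; none of the 4 tested passed the threshold (limma; 0 had an unadjusted p under 0.05). *Ccl12* was lowest in the same hearts, at -2.90 in SIRT1 KO replicate 1 and -2.94 in SIRT1 KO replicate 4. Without SIRT1 KO replicate 1 the log2 fold change of *Ccl12* was -0.58, and without SIRT1 KO replicate 4 it was -0.57. Each of these fits keeps the other heart with high liver markers, and a link of these markers with *Ccl12* was not tested.

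Granulocyte markers were tested for 7 of 11 genes, and the eosinophil genes *Prg2* and *Epx* and the neutrophil elastase gene *Elane* were well above background on none of the arrays. None of the 7 passed the threshold (limma; 1 had an unadjusted p under 0.05), and all 7 fitted differences were above 0, with a median of 0.35. Without SIRT1 KO replicate 1 the median was 0.07, with 6 above 0 and 1 below. The mean level of the list was -0.49 in that heart and -1.74 to -1.52 in the other hearts labelled SIRT1 KO. The fibroblast list, 7 of 7 tested, had no call (limma; 1 had an unadjusted p under 0.05) and a median of 0.01. Of 5 erythroid markers 4 were tested without a call (limma; 2 had an unadjusted p under 0.05), and no lung or thymus marker was well above background on enough arrays to be tested.

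The rest of the CC chemokine system was described from lists of genes that are no members. Of 13 other CC chemokines 7 were tested, and none passed the threshold (limma; 1 had an unadjusted p under 0.05). *Ccl3*, a ligand of *Ccr1*, had the smallest p, with log2 levels of -4.31, -4.16, -4.33 and -4.52 in WT and -4.23, -3.78, -3.21 and -3.59 in the hearts labelled SIRT1 KO. SIRT1 KO replicate 1 lay within the WT range and the other 3 above it. The difference was 0.63 (SE 0.193, adjusted p = 0.106, limma), and without SIRT1 KO replicate 1 it was 0.81 (adjusted p = 0.0315). It was 0.41 without scaling (adjusted p = 0.104) and 0.40 with normexp, where it passed (adjusted p = 0.0252). *Ccl25*, which guides T cell precursors, differed by -0.15 (SE 0.0663, adjusted p = 0.235), or -0.28 with median centring and -0.37 without scaling (adjusted p = 0.0231).

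Among 13 CC receptors and scavengers, 4 were tested and 1 passed the threshold, beside 4.88% of all probes. *Ccr6*, the receptor of *Ccl20*, had log2 levels of -3.13, -3.36, -2.95 and -3.16 in WT and -2.41, -2.30, -2.27 and -2.70 in the hearts labelled SIRT1 KO. All hearts labelled SIRT1 KO were above all WT hearts, a rise of 0.73 (SE 0.120, adjusted p = 0.0110, limma). Of all probes tested 3.97% passed with a higher signal. The rise passed with each array left out in turn (adjusted p between 0.00595 and 0.0355) and missed the threshold in the methods' analysis of variance (adjusted p = 0.0524), which 2.13% of all probes passed. Its ligand *Ccl20* was above background on none of the arrays. The scavenger *Ackr4* differed by -0.55 (SE 0.258, adjusted p = 0.259), or -0.31 without WT replicate 2 and -0.32 with normexp.

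All 18 genes of the list for signal transduction from *Ccr2* (G protein subunits, arrestins, kinases and small GTPases) were tested, and none passed (limma; 4 had an unadjusted p under 0.05). The smallest p-values were those of *Gng2*, a G protein gamma subunit, with -0.35 (SE 0.106, adjusted p = 0.0998), and of the arrestin *Arrb2* with 0.32 (SE 0.108, adjusted p = 0.136). *Gng2* passed in 3 alternatives, at -0.57 without scaling (adjusted p = 0.0143, limma), -0.48 with median centring (adjusted p = 0.0371) and -0.36 with normexp (adjusted p = 0.0425). *Arrb2* was 0.10 without scaling and 0.19 with median centring, and passed with normexp at 0.33 (adjusted p = 0.0287, limma). The median over the list was -0.01. Of 17 inducers and regulators of *Ccl2* transcription 13 were tested, none passed (limma; 2 had an unadjusted p under 0.05), and the median was -0.04.

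In that list the cytokine gene *Il6* had a fitted difference of -1.04 (SE 0.252, adjusted p = 0.0510, limma), which was -0.13 with normexp. Its log2 levels were -4.82, -4.09, -4.60 and -4.58 in WT and -6.18, -4.97, -5.40 and -5.72 in the hearts labelled SIRT1 KO. All 4 WT arrays but only 1 of the others had it well above background, so the size of the difference was not measured. Its adjusted p lay between 0.0133 and 0.356 over 16 alternatives and passed in 5 of them, among them the fit without SIRT1 KO replicate 2 (0.0254). *Tnf* and *Ifng*, inducers of *Ccl2*, were well above background on 0 arrays.

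**Figure D5:**
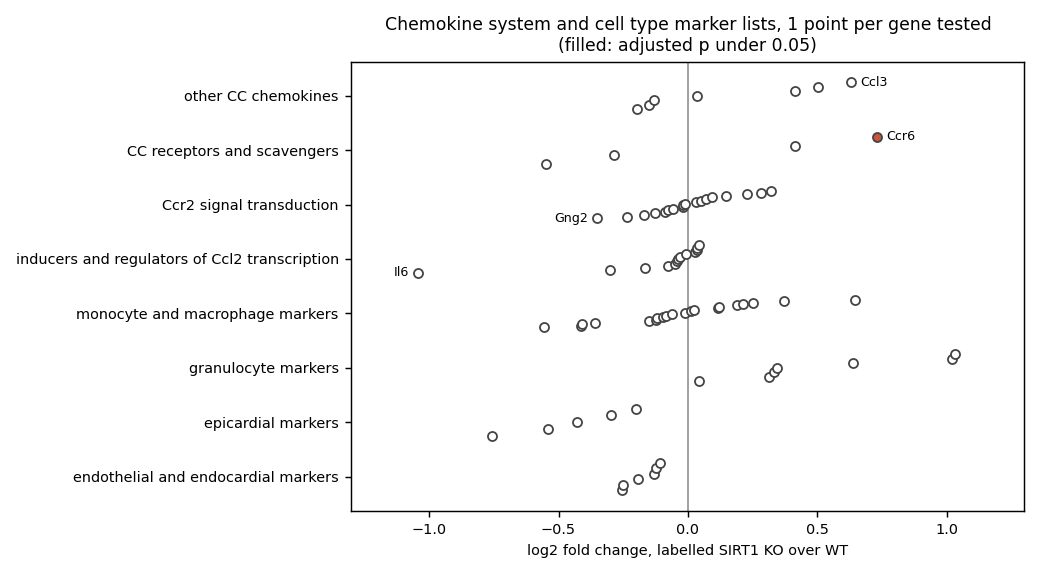
Fitted log2 fold change of the hearts labelled SIRT1 KO over WT (horizontal axis) for each tested gene of the chemokine and marker lists (vertical axis), 1 point per gene, filled where the adjusted p was under 0.05. Ccr6 at 0.73 is the only filled point; the gene with the smallest p is named for the chemokine, receptor, signalling and regulator lists.

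The 5 named genes whose probes followed the *Ccl12* probe most closely over the 8 arrays were *Rcan2* (r = 0.98), *Zdhhc2* (0.98), *Cenpv* (0.98), *Slf1* (0.98) and *Pigu* (0.98), out of 25524 candidate probes. Such a likeness holds the difference between genotypes and that within them. With the genotype means removed, r was 0.85, 0.89, 0.77, 0.79 and 0.91 in the same order, and the log2 fold changes were -0.31, -0.67, -0.65, -0.18 and -0.22. They were found as the highest of many, and no test is given.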

How the data were processed

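Total RNA from 8 hearts (500 ng each) was labelled with Cy3 and hybridized to Agilent one-color whole mouse genome arrays. The authors deposited, per array, the intensity of every spot as Feature Extraction wrote it after background subtraction, and without scaling; its version is 9.5 in the paper and 12.0.0.7 in the file headers. The deposited table of processed values equals these intensities in 100% of spots. The study compared genotypes in Partek, by analysis of variance and Benjamini-Hochberg correction.

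Here log2 of the processed signal was centred on the 75th percentile of each array's non-control probes and averaged over the spots of a probe, leaving out outlier spots. Accessions matched RefSeq names (GRCm38.p6, used for names, gene order and promoter sequence; the file headers name an older build) for 28223 probes (68.5%). The fit (limma 3.58.1, R 4.3.3) took the 25615 probes well above background on at least 4 arrays, with p adjusted over all of them and a threshold of 0.05. A gene of a list is given by its brightest tested probe. Correlations used deviations from genotype means and all 576 permutations within genotype, whose smallest p is 0.00174. Nothing in the labels says more of the replicates than their numbers, so p-values measure the spread between these samples. No 2 arrays of a genotype held the same values (highest r 0.995). Python 3.11.15 with numpy, pandas and matplotlib prepared arrays and plots, and the fit was tested on simulated data.

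The members and the gene lists were chosen with earlier results of these data known. Named are all members, *Sirt1*, list genes past the threshold, the 2 of each chemokine, receptor, signalling and regulator list with the smallest p, markers not detected, and the 5 genes most like *Ccl12*; a gene that this rule names in the regulator list is not reported here. Other settings changed the scaling, the background correction, the filter, the test, the replicate block or the probe of a gene, or left out an array.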

Additional observations from a re-analysis of the deposited data

Results flagged for a closer look

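In a group of 4 hearts, a heart was singled out where its gap to the nearest other heart took up more of the range of the group than Dixon's critical value for a level of 95%. This was checked for the 14 probes in both genotypes, 28 groups in all, and chance marks about 1 group in 20. One was marked. On the dimmer *Ccl7* probe (A_52_P208763) SIRT1 KO replicate 4 had a log2 level of -3.12, below the other 3 hearts labelled SIRT1 KO by 0.879 of the range. On the brighter *Ccl7* probe the same heart was also the lowest of its genotype, at -2.49.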

How the results depend on the processing

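The log2 fold change of *Ccl12* was below 0 under all 17 alternatives. It was -0.75 with each array centred on its median, -0.83 without scaling and -0.37 with normexp on the median signal, an alternative chosen after seeing the data; normexp on the mean signal was not run, since the deposited columns used here hold no mean signal. Member probes past the threshold numbered 2; this was 4 without scaling, 1 without a filter on dim probes, 1 with the replicate block and 1 to 3 with 1 array left out (1 without WT replicate 2, 3 or 4 or SIRT1 KO replicate 1 or 2). Of all probes 1250 passed, and 1904 with median centring, 6352 without scaling, 2566 with normexp, 546 in the methods' analysis of variance and 657 to 1825 with 1 array left out (658 without WT replicate 2, 657 without WT replicate 3, 728 and 726 without SIRT1 KO replicates 1 and 2).

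List calls moved as follows. Without scaling 2 other CC chemokines, 4 signalling, 2 regulator, 3 macrophage, 3 epicardial, 3 endothelial and 2 erythroid genes passed. With median centring these were 2 signalling, 2 regulator, 2 macrophage, 2 epicardial and 1 erythroid. With normexp they were 1 other CC chemokine, 3 signalling, 1 macrophage and 2 epicardial. Quantile normalization gave 1 regulator, no filter 1 granulocyte gene and 1 lung marker of 4 (higher in the hearts labelled SIRT1 KO), the stricter filter 1 epicardial gene, and the analysis of variance 0 receptors. With 1 array left out, other CC chemokines, regulators, granulocyte and epicardial genes each went from 0 to 1.

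Pairs of members past the threshold, 0 in the report, were 1 after quantile normalization, 3 without scaling and 1 with normexp, and pairs of a member with a marker list were 1 after quantile normalization. The pair was *Ccl2* with *Ccl7* in all 3 settings, joined without scaling by *Ccl2* with *Ccl12* and *Ccl7* with *Ccl12*. None of the members and named genes past the threshold changed sign under an alternative.

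Arrays carry replicate numbers, but nothing says that a number joins a WT and a SIRT1 KO heart. Same-numbered deviations correlated between 0.06 and 0.21, not above 0.1 for every pair, although all 8 arrays correlated best with their own number. With the replicate block 1185 of all probes passed, 1 member probe (*Ccl12*), 1 regulator, 1 macrophage, 1 granulocyte, 1 epicardial and 1 erythroid gene. For members near background, such as *Ccl8*, *Ccl11* and *Ccr2*, the signal limits what can be compared.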
